A study of Mus musculus with 9 samples.

Results

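The locus described here is Myc with its flanks on mouse chromosome 15, from 61300000 to 63000000 in genome build mm9, a window of 1.7 Mb with the Myc body at about 61816900 to 61822000. The members are all regions of the deposited region lists that overlap this window, a choice made by position and not by signal. Of 185632 regions in the 9 lists, 105 were members: 84 of 62790 H3K27ac regions, 20 of 46939 H3K4me3 regions and 1 of 75903 H3K27me3 regions. The lists came from chromatin immunoprecipitation followed by sequencing (ChIP-seq) of 3 mouse pancreatic cancer cell lines of mixed C57BL/6-SV129 background, grown in F12/DMEM with EGF and given no treatment. A female line without Kdm6a (female KO) and a male line without it (male KO) were set beside a male line that has it (male WT, here WT). Each line had 1 library per mark, so there was no replicate, no p-value was computed, and every difference below is between libraries. The female KO line differs from WT in sex as well as in Kdm6a, and no female WT line was among the samples. Whether a line is 1 clone is not stated in the labels.

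Myc encodes a transcription factor that drives growth and proliferation, and it is switched on at high level in many cancers. The gene sits in a stretch of the genome that is poor in other protein-coding genes and rich in distant enhancers, which are used in different combinations in different tissues. Its neighbour downstream is Pvt1, a long non-coding RNA gene, which is the next gene after Myc in the RefSeq gene table (assembly GRCm38.p6). In that table the nearest protein-coding genes are A1bg before Myc and Gsdmc after it. H3K4me3 marks promoters, H3K27ac marks active promoters and enhancers, and H3K27me3 marks silenced genes. Kdm6a is an X-linked gene, and its product is a demethylase that takes H3K27me3 away. No gene other than Myc was placed on mm9 here, so neither the deletion of Kdm6a nor the markers of pancreatic cells were checked.

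The files list enriched regions with the number of reads in each. The depth of the libraries is not given in the sources used here. Summed over its regions, the library with the fewest reads held 2396174 and the one with the most held 18507923. To set the 3 lists of a mark on 1 scale, reads were divided by the median ratio to WT over the autosomal bins of 200 bp that all 3 lists hold. The divisors for H3K27ac were 1.75 in female KO and 2.22 in male KO, and for H3K4me3 they were 1.07 and 0.677. Reads divided in this way are called scaled reads. A region absent from a list may still hold reads, because only enriched regions are listed.

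Distances are given in kb from the Myc start, with negative values upstream. All 3 lines carried a strong H3K4me3 region over the whole Myc body, inside a wider H3K27ac region, and none carried H3K27me3 there. The H3K4me3 region ran from -2.3 to 7.3 kb from the Myc start in female KO and in WT (61814601 to 61824200), and from -2.1 to 6.5 kb in male KO (61814801 to 61823400). It held 4103 reads in female KO (95% exact Poisson interval 3978 to 4231), 2273 in male KO (2181 to 2368) and 3472 in WT (3357 to 3589). These intervals cover counting error only. On the common scale the region held 400.3 scaled reads per kb in female KO and 390.3 in male KO, against 362 in WT. The 3 lines thus lay close together. This was a high promoter signal in each line, since 2.16% of the H3K4me3 regions of female KO, 0.219% of those of male KO and 0.707% of those of WT held more reads.

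H3K27ac over Myc reached further than H3K4me3 on both sides. The region spanned 21.4 kb in female KO (61806801 to 61828200), 18.4 kb in male KO (61809401 to 61827800) and 14.4 kb in WT (61811801 to 61826200). It held 2009 reads (1922 to 2099), 2986 reads (2880 to 3095) and 856 reads (800 to 915) in the same order, or 53.7, 73.2 and 59.4 scaled reads per kb. The male KO value was the highest and the female KO value the lowest per kb, while the female KO region was the widest. A second male KO region of 4.2 kb with 200 reads followed at 11.9 kb after the start.

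Each region has a single count, so a ratio at the Myc body is the ratio of the densities of the whole regions that cover it. Over the 5.2 kb of bins at the Myc body, the difference in H3K4me3 from WT was small in both KO lines. It was 0.15 on the log2 scale in female KO (0.06 to 0.23) and 0.11 in male KO (0.01 to 0.21), that is 1.11 and 1.08 times WT. H3K27ac there differed by -0.15 in female KO (-0.35 to 0.06) and by 0.30 in male KO (0.11 to 0.49), that is 0.903 and 1.23 times WT. These intervals also cover counting error only, and the spread between cultures is unknown. They were computed on the part of each region's reads that falls in these bins when spread evenly. The whole regions held more reads, so the intervals are wider than the counting error of the ratio. With the scale taken from all reads in regions, the sign changed for female KO H3K4me3 and for male KO H3K27ac, and with the scale taken from the rest of chromosome 15 it changed for male KO H3K4me3.

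Myc lay far from H3K27me3 in every line. The female KO and WT lists held no H3K27me3 region in the 1.7 Mb window, and the male KO list held 1, of 4.8 kb with 74 reads, at 905.9 kb after the Myc start (62722801 to 62727600). The nearest H3K27me3 regions before Myc ended 2166 kb from the start in female KO, 986 kb in male KO and 996 kb in WT. After Myc the nearest began at 1669 kb in female KO, at 906 kb in male KO and at 1744 kb in WT. The stretch without H3K27me3 around Myc was thus 3835 kb long in female KO, 1892 kb in male KO and 2740 kb in WT, and it ranked 86 of 19368, 209 of 28165 and 132 of 26221 such stretches on the autosomes of each list. The female KO list, which covers the most H3K27me3 in the genome, had the longest of the 3 stretches here.

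**Figure D1:**
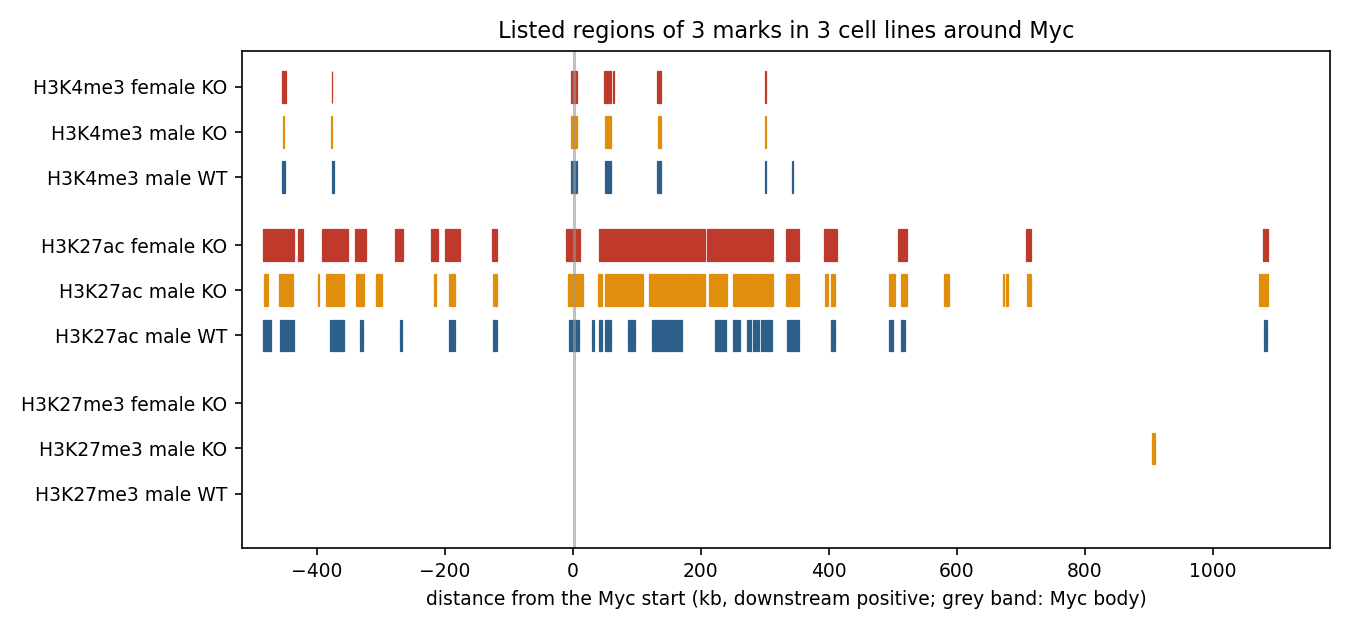
Listed regions of H3K4me3, H3K27ac and H3K27me3 in the 3 lines (rows) by distance from the Myc start in kb (x axis), with 1 bar per region and a grey band for the Myc body. H3K27ac regions lie close together between Myc and about 400 kb after it in each line, and the H3K27me3 rows are empty except for 1 male KO region of 4.8 kb.

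Besides the region at Myc, H3K4me3 was found at few places, most of them the same in the 3 lines. Merged over the lists, the 20 H3K4me3 regions made 8, of which 6 were in all 3 lists (65.0% of merged H3K4me3 regions in the genome were), 1 was in WT alone (8.42%) and none was in both KO lists without WT (3.20%). With 8 regions, little can be read from these shares. The second strongest lay 49.1 to 60.3 kb after the start (61866001 to 61877200) and held 2244 reads in female KO and 1297 in male KO, against 1752 in WT, or 191, 204 and 209 scaled reads per kb. Like that of Myc, this region was similar in the 3 lines, and whether it is the start of Pvt1 was not determined on mm9. The other 4 shared regions were weaker, with 36 to 454 reads each.

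The weaker H3K4me3 regions varied more between lines. The region at 131.7 to 137.7 kb held 425 reads in female KO and 118 in male KO, against 245 in WT. In the bins held by all 3 lists, this was 1.68 times WT in female KO and 0.825 times in male KO. The region at -454.3 to -448.5 kb held 454, 52 and 216 reads, and its shared bins were at 1.83 and 0.770 times WT. In both of these regions female KO was above WT and male KO below it. The other weaker regions did not share this: the one at -377.1 to -373.3 kb was at 0.796 times WT in female KO and 1.13 times in male KO, and the one at 299.9 to 302.7 kb at 1.32 and 1.28 times. The region of WT alone, at 341.9 to 344.1 kb, held 79 reads, and a region of female KO alone, at 62.9 to 64.5 kb, held 54.

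Every H3K4me3 base of the window lay under H3K27ac of the same line, 37 kb in female KO, 28 kb in male KO and 37.6 kb in WT. Over the genome 82.4, 76.6 and 61.0% of the H3K4me3 length lay under H3K27ac. No H3K27ac of the window lay under H3K27me3. For female KO and WT this only restates that their lists held no H3K27me3 region there, and male KO held only 4.8 kb. Over the genome 10.8, 3.02 and 0.383% of the H3K27ac length lay under H3K27me3.

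H3K27ac covered a large part of the window in all 3 lines, and more of it in the KO lines than in WT. It covered 527.6 kb in female KO in 21 regions, 442.6 kb in male KO in 33 regions and 268.8 kb in WT in 30 regions, or 31.0, 26.0 and 15.8% of the window. Among 1440 windows of the same length tiled over the autosomes, 2.29% held more H3K27ac in female KO and 1.04% in male KO, against 3.47% in WT. The median window held 89.9, 66.4 and 47.7 kb. For H3K4me3 the Myc window was ordinary, with 49.4, 51.7 and 46.8% of windows holding more.

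Few windows combined as much H3K27ac with so little H3K27me3, although windows without H3K27me3 were common. Of all 1440 windows, 24.9% held none in female KO and 22.1% in WT, and 15.5% held none in any list. In male KO 67.8% of all windows held more H3K27me3 than the Myc window. Of the 33 autosomal windows with at least as much female KO H3K27ac as the Myc window, none was without H3K27me3, and the lowest held 304.8 kb of it. In male KO the 15 such windows held at least 120.2 kb of H3K27me3, against 4.8 kb at Myc. In WT 1 of 51 such windows also held none, and the median of the 51 was 197 kb.

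**Figure D2:**
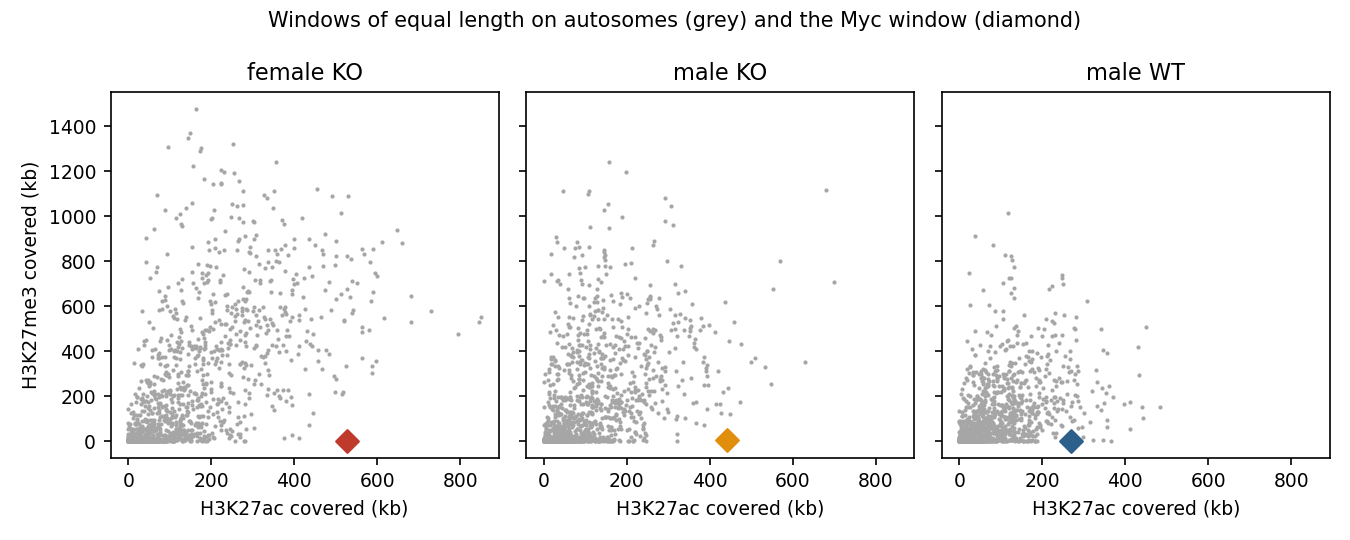
Covered length of H3K27ac (x axis, kb) and H3K27me3 (y axis, kb) in 1440 autosomal windows of 1.7 Mb (grey points), with the Myc window as a diamond, in each line. The diamond lies at the bottom of each panel, at 527.6, 442.6 and 268.8 kb of H3K27ac.

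The KO lists covered more H3K27ac than WT in the window and over the whole genome. The female KO list covered 1.96 times the WT length in the window, 1.39 times on chromosome 15 and 1.82 times over the genome. The male KO list covered 1.65 times the WT length in the window, 1.57 times on chromosome 15 and 1.33 times over the genome. Of 972 autosomal windows with at least 20 kb of WT H3K27ac, 40.1% had a ratio at least as high as the Myc window in female KO and 22.2% in male KO. The WT library held the fewest H3K27ac reads in regions of the 3, and the part of depth in these lengths was not tested. The lists were also shortened to the same covered length over the genome by dropping the regions with the fewest reads. H3K27ac cover in the window was then 1.62 times WT in female KO and 1.50 times in male KO, with the genome equal by construction. The WT list, the shortest, stayed whole, so a window of high-count KO regions loses little cover in this way. How many other windows had as high a ratio on this setting was not computed, so nothing particular to Myc is read from it.

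The scale sets the median shared bin of the autosomes equal to WT, so densities in shared bins show only how the Myc window departs from that median. Over the 243.2 kb of the window held by all 3 lists, female KO differed from WT by -0.03 on the log2 scale and male KO by 0.12, or 0.977 and 1.09 times WT. For H3K4me3, over 26.6 kb, the differences were 0.11 and 0.05. Each of these signs changed on another scale. With all reads in regions, H3K27ac was at -0.85 and -0.19 and H3K4me3 at -0.12 and 0.27. The sign thus changed for male KO H3K27ac and female KO H3K4me3. With the rest of chromosome 15 it changed for female KO H3K27ac (0.074) and male KO H3K4me3 (-0.075). Among autosomal windows with at least 20 kb of such bins, the central 90% lay between -0.40 and 0.46 for female KO H3K27ac (845 windows) and between -0.32 and 0.35 for male KO. The Myc window as a whole was thus inside the spread of the genome in both marks and both KO lines, for H3K4me3 as well (-0.24 to 0.36 and -0.23 to 0.26). The number of copies of the locus was not measured in any line.

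H3K27ac regions often lie side by side, so regions of the 3 lists were pooled and joined where the gap was at most 10 kb. This gave 18246 clusters in the genome and 17 in the window, 8 before the Myc start, 8 after it and 1 over it. All 3 lines had a region in 11 of the 17. The remaining 6 were 3 clusters of male KO alone, 2 of both KO lines without WT and 1 of female KO and WT. The shares of these patterns over all clusters of the genome were not computed, so nothing particular to the window is read from them. H3K4me3 of any line was present in 5 of the 17 clusters, and the other 12 were free of it. Over clusters of the genome listed in both a KO line and WT, KO totals of scaled reads lay above WT at the median. These medians were 0.82 on the log2 scale in female KO and 0.30 in male KO. Totals of single clusters are to be read beside them.

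H3K27ac was concentrated in the first 400 kb after the Myc start. This stretch is 23.5% of the window and held 62.8% of its H3K27ac reads in female KO and 65.8% in male KO, against 58.4% in WT. The whole part after the start is 69.6% of the window and held 68.9, 75.1 and 65.1% of the reads, near its share of the length. In the band from 100 to 200 kb after the start, the female KO regions covered all 100 kb, those of male KO 88.4 kb and those of WT 44 kb. Beyond 600 kb after the start only 16.2, 26.2 and 5.6 kb were covered. The longest stretch without any region of any mark and line ran for 189.2 kb, from 716.7 to 905.9 kb after the start. Before Myc, a stretch of 107.6 kb without any region reached from -117.7 to -10.1 kb.

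The cluster that followed Myc was among the largest of the genome. It spanned 284.0 kb, from 29.5 to 313.5 kb after the start (chr15:61846401-62130400), and ranked 17 of 18246 by scaled reads averaged over the lines and 5 by span. It held 17723 reads in female KO and 19156 in male KO, against 4983 in WT, or 10134, 8636 and 4983 scaled reads. Its KO totals were 1.02 and 0.79 above WT on the log2 scale, beside genome medians of 0.82 and 0.30. In each line it took about the same part of the H3K27ac reads of the window, 53.4% in female KO and 53.2% in male KO, against 47.9% in WT. The regions filled 93.0% of its span in female KO with 6 regions, 84.0% in male KO with 10 and 47.3% in WT with 15. Per covered kb it held 38.4, 36.2 and 37.1 scaled reads, and in the 127.2 kb of bins shared by all 3 lists the KO lines were at 0.993 and 1.11 times WT. With the scale from all reads in regions these became 0.564 and 0.890. The KO lines thus had more of the cluster listed, and in its shared bins they lay near the autosomal median that sets the scale.

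A single female KO region of 128.8 kb made up the middle of this cluster, from 77.7 to 206.5 kb after the start, with 9644 reads. In the whole female KO list 5 regions, this one included, were at least as wide. In the merged stretch that holds it, from 77.7 to 206.7 kb, male KO had 9753 reads over 117.4 kb and WT had 2441 reads over 54.6 kb. The male KO regions were strongest from 118.5 to 171.5 kb, where 1 region of 53 kb held 6747 reads, and WT was strongest inside that interval, from 124.1 to 159.5 kb, with 1736 reads in 35.4 kb. Those 2 regions were the widest H3K27ac regions of the window in their lists.

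**Figure D3:**
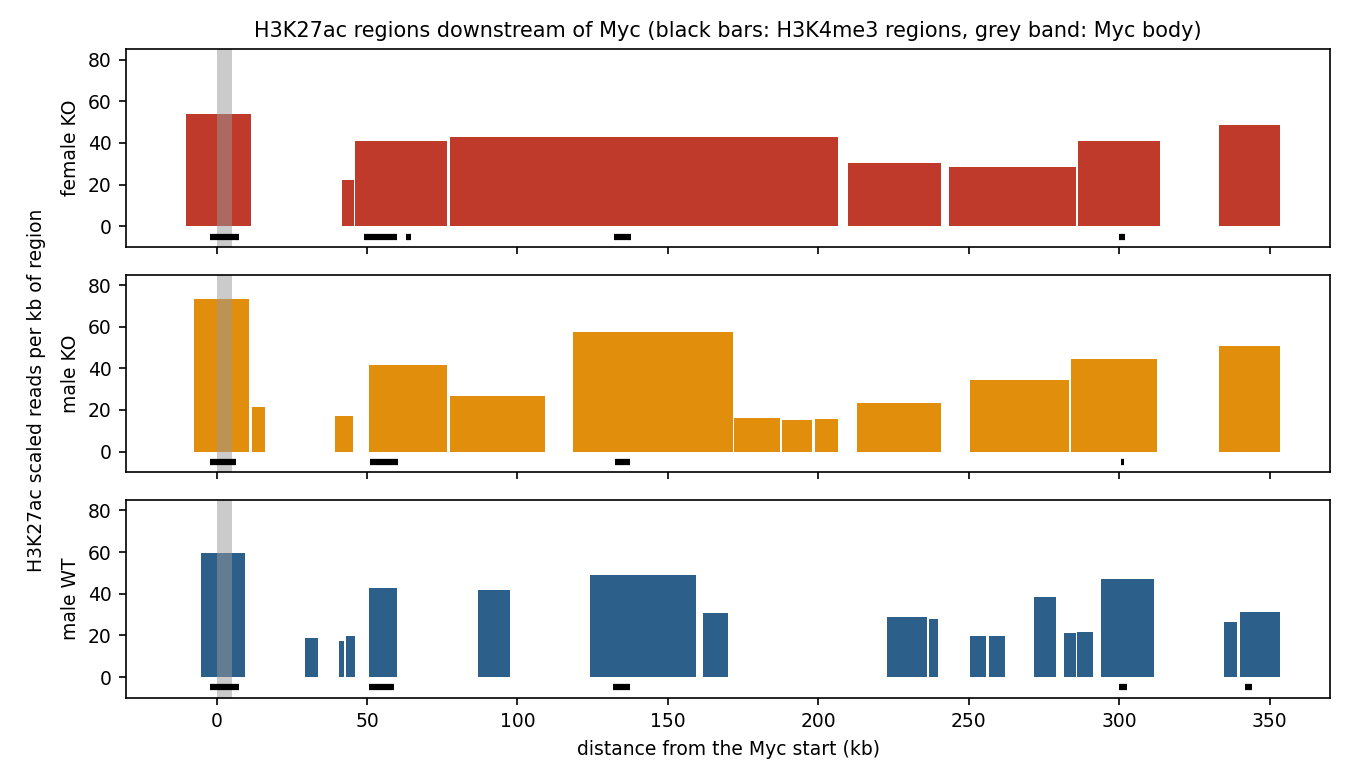
H3K27ac regions from 30 kb before to 370 kb after the Myc start in the 3 lines (panels), drawn as boxes whose height is the scaled reads per kb of region (y axis) over the distance in kb (x axis), with H3K4me3 regions as black bars. The female KO boxes are long, up to 128.8 kb, whereas the 15 WT boxes of the cluster from 29.5 to 313.5 kb are shorter, with gaps between them.

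The cluster over Myc itself ran from -10.1 to 16.1 kb (chr15:61806801-61833000). It held 1149, 1436 and 856 scaled reads in female KO, male KO and WT and ranked 957 in the genome. The cluster beside it held 8.82 times as many scaled reads in female KO, 6.01 times in male KO and 5.82 times in WT. This split rests on the joining gap: at 20 kb the cluster over Myc, the one beside it and the next one downstream became 1 cluster from -10.1 to 353.5 kb.

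The next cluster downstream, from 333.1 to 353.5 kb after the start (chr15:62150001-62170400), stood apart by density within the window. It held 1716 reads in female KO and 2289 in male KO, against 532 in WT, or 981, 1032 and 532 scaled reads. Nearly the same length was covered (20.2, 20.4 and 17.6 kb). Its KO totals were 0.88 and 0.96 above WT on the log2 scale, beside genome medians of 0.82 and 0.30. In its 17.6 kb of shared bins the KO lines were at 1.61 and 1.67 times WT. Both ratios divide by the same 532 WT reads, and how many clusters of the genome reach such ratios was not computed. Among the other clusters with a region in all 3 lists, the highest shared-bin ratio was 1.02 in female KO and 1.26 in male KO. This excess over WT was not kept in female KO on every scale: with the scale from all reads in regions it was at 0.912 times WT, and male KO at 1.34 times. This cluster also held the H3K4me3 region that was listed in WT alone. A further cluster at 393.1 to 412.9 kb (chr15:62210001-62229800) held 545, 266 and 212 scaled reads, 2.57 times WT in female KO and 1.26 times in male KO. Its log2 ratios were 1.36 and 0.33, beside the same medians. Its shared bins, 5 kb in all, were at 0.805 and 0.920 times WT.

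The 3 nearest clusters upstream each held fewer scaled reads than the cluster over Myc. The nearest, at -126.1 to -117.7 kb (chr15:61690801-61699200), held 202, 147 and 210 scaled reads in female KO, male KO and WT. The KO lines lay far apart in the next, at -198.9 to -175.9 kb (chr15:61618001-61641000), with 1568 reads in female KO and 499 in male KO, against 504 in WT, or 897, 225 and 504 scaled reads. In this cluster male KO was at 0.446 times WT and female KO at 1.78 times. On the log2 scale these were -1.16 and 0.83, beside medians of 0.30 and 0.82 over the clusters of the genome. The female KO total was thus near its genome median. In the 9.6 kb of shared bins of this cluster male KO was at 0.455 times WT and female KO at 0.773 times. The higher female KO total thus came with the longer covered length, 23 kb against 10 kb in WT. Male KO stayed below WT on each of the 4 scales tried, at 0.366 to 0.455 times. The third, at -221.5 to -210.3 kb (chr15:61595401-61606600), held 402 reads in female KO and 118 in male KO, with no WT region.

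Farther upstream lay a pair of strong clusters. The one at -484.7 to -421.1 kb (chr15:61332201-61395800) held 2139, 1431 and 1628 scaled reads, and its shared bins were at 1.02 and 1.03 times WT. Its parts differed, with shared bins at 0.588 and 0.418 times WT from -484.7 to -459.5 kb and at 1.12 and 1.17 times from -458.9 to -435.1 kb. The one at -397.7 to -351.3 kb (chr15:61419201-61465600) held 1360, 1171 and 807 scaled reads, with shared bins at 0.824 and 1.05 times WT. Both held H3K4me3 regions of all 3 lines. They ranked 529 and 987 in the genome, beside 957 for the cluster over Myc.

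**Figure D4:**
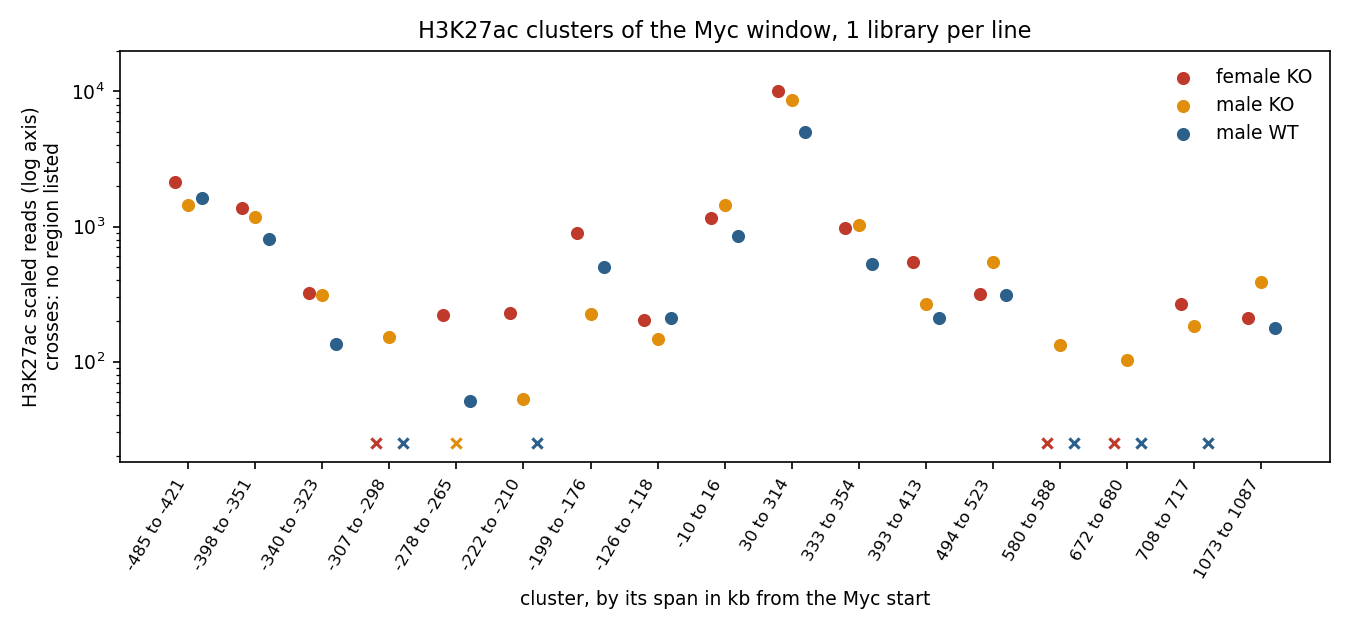
Scaled H3K27ac reads (y axis, log scale) of the 17 clusters in order of position (x axis, span in kb from the Myc start), 1 point per line and a cross where a line has no region. The cluster from 29.5 to 313.5 kb stands highest in each line, and male WT has no region in 5 clusters.

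Counted over the window, most clusters held more scaled reads in the KO lines than in WT. Of the 12 clusters with a region in female KO and WT, 4 were at least 2 times higher in female KO and 0 at least 2 times lower. Over the genome 40.3% were higher and 5.03% lower by this measure. Of the 11 clusters with a region in male KO and WT, 2 were at least 2 times higher and 1 at least 2 times lower, with 14.2 and 7.83% over the genome. The median difference was 0.79 on the log2 scale in female KO, against 0.82 over the genome, and 0.75 in male KO, against 0.30. The female KO share was thus not above that of the genome. With the scale from all reads in regions, 1 cluster was at least 2 times higher in female KO and 0 in male KO. Both KO comparisons share the WT libraries. The only cluster that passed the 2-fold mark upward in both KO lines lay at -340.3 to -323.3 kb, with 320 and 312 scaled reads against 136 in WT. In its 5 kb of shared bins the KO lines were below WT, at 0.693 and 0.987 times. Picked out after its values were seen, it covered 17 kb in female KO, 11.6 kb in male KO and 5 kb in WT. How many clusters of the genome passed the mark in both KO lines was not computed.

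In shared bins the picture was flatter. Of the 11 clusters with a region in all 3 lists, 2 were above WT in female KO and 6 in male KO by shared-bin density, whereas 10 and 8 were above WT by total scaled reads. All 11 covered more in female KO than in WT, and 8 covered more in male KO. Over the genome the female KO list covered 1.82 times the WT length and the male KO list 1.33 times. The shares of all clusters that go these ways were not computed, so the counts are not read as particular to the window. The median shared-bin difference over the 11 was -0.28 in female KO and 0.05 in male KO. The count of a region is spread evenly over its length here, so a long region has a lower density than its core.

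A few H3K27ac places were listed in the KO lines and not in WT. Clusters with a region in female KO and none in WT numbered 2 of 17 (16.9% over the genome), and those with a region in male KO and none in WT numbered 5 of 17 (25.4%). Merged region by region, the window held 28 H3K27ac regions, of which 15 were in all 3 lists (44.6% over the genome), 2 in both KO lists and not WT (9.69%), 7 in male KO alone (16.5%) and 1 in WT alone (8.12%). With so few regions, no pattern is read as particular to the window. One of the pair in both KO lists is the third upstream cluster described above. The other, named after its values were seen, lay 708.3 to 716.7 kb after the start (chr15:62525201-62533600) and held 468 reads in female KO and 408 in male KO.

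The male KO regions that met no WT region were thinner than most WT regions of the window. In male KO, 13 such regions held 12.7 to 26.0 scaled reads per kb with a median of 16.9, and in female KO 3 held 17.2 to 31.9 with a median of 20.5. The densest of these 3, at 708.3 to 716.7 kb, was above the WT median. The 30 WT regions of the window held 17.2 to 59.4 with a median of 29.9. KO regions that met a WT region had medians of 30.5 in male KO and 29.5 in female KO. Of the 13 in male KO, 7 were at or below the density of the thinnest WT region of the window, as was 1 of the 3 in female KO. Over the whole WT list the thinnest region held 9.64 per kb, less than each of these KO regions. Whether these places hold reads in WT below the calling threshold was not tested.

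The 8 clusters not chosen by the rule for named clusters held between 51 and 545 scaled reads where a region was listed. The one farthest from Myc, at 1073.3 to 1087.1 kb after the start (chr15:62890201-62904000), was present in all 3 lines, with 209, 392 and 178 scaled reads in female KO, male KO and WT, although no region of any line was listed in the 162.6 kb before it.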

How the data were processed

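The authors deposited a list of enriched regions for each of the 9 libraries. The tools named are Bowtie 1.1.2 and SICER 1, with build mm9, per the submitters' processing notes. The last column of the deposited lists holds whole numbers and was taken as the read count of a region, which rests on SICER's usual output since no header names it. The control library, threshold and depth are not given in the sources used. Borders lay on a grid of 200 bp.

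Region counts were spread evenly over bins of 200 bp, and each KO list was scaled to WT by the median ratio over autosomal bins held by all 3 lists of the mark. Pooled H3K27ac regions were joined across gaps of at most 10 kb. The 1440 comparison windows leave out those that overlap the Myc window. Named clusters are the 3 nearest to the Myc start on each side, the one that holds it and the 5 with the most scaled reads. A cluster counted as higher or lower at 2-fold. Ratio intervals are 95% Wilson intervals on the reads that this spreading assigns to the bins. The functions were tested on simulated lists that all had the WT region borders and differed only in counts. Lists of unlike covered length, as in these data, were not simulated, so the test does not bear on the scale in that setting. The members, lists and rules were chosen with earlier results of these data known. Versions were Python 3.11.15, with numpy 2.4.6 for arrays, pandas 2.3.3 for tables, scipy 1.17.1 for intervals and matplotlib 3.10.9 for figures. Alternatives changed the scale, gap, fold, window, overlap and lists.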

Additional observations from a re-analysis of the deposited data

Results flagged for a closer look

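On the scale used here, H3K27ac differed from WT in opposite directions in the 2 KO lines at Myc. At the Myc body the log2 ratio was -0.15 in female KO and 0.30 in male KO. In the shared bins of the window it was -0.033 and 0.12. Each value is 1 library against the same WT library. The female KO interval at the body includes 0, but it was computed on the 488 and 309 reads assigned to the body bins. The whole regions held 2009 reads in female KO and 856 in WT, and no interval was computed from those counts. The opposite directions were kept on some other scales and lost on others. With total reads in shared bins they were kept at the body (-0.19 and 0.29) and in the window (-0.072 and 0.11). With the rest of chromosome 15 they were kept at the body (-0.040 and 0.26). In the window both lines were above WT on that scale (0.074 and 0.079). With all reads in regions both lines were below WT at the body (-0.96 and -0.018) and in the window (-0.85 and -0.19). The difference between the KO lines was not tested.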

How the results depend on the processing

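There was 1 library per mark and line, so no library could be left out and no spread between cultures is known. Of the values recomputed under an alternative, 11 changed direction, 41 moved further and 69 stayed within a tolerance, which was 1.5 times for counts, 0.005 for length ratios and the counting interval for log2 ratios. Within it, clusters in the window went from 17 to 12 with gaps of 20 kb, and merged H3K27ac regions of all 3 lists from 15 to 10 with lists of equal length. The scale decides most directions at Myc. Scaling by all reads in regions shifts every H3K27ac log2 ratio down by 0.82 in female KO and 0.32 in male KO. Those totals include all the length called. The main scale also depends on that length, since each count is spread evenly over its region. The part of called length in either scale was not tested. With all reads in regions, H3K4me3 at the Myc body was at -0.091 in female KO and 0.33 in male KO. H3K27ac there was at -0.96 and -0.018. In the window, H3K4me3 was at -0.12 and 0.27 and H3K27ac at -0.85 and -0.19. With the rest of chromosome 15 as the scale, H3K4me3 was at 0.28 and -0.011 at the body and at 0.24 and -0.075 in the window, and H3K27ac in the window at 0.074 and 0.079. With total reads in shared bins, female KO H3K27ac in the window was at -0.072.

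Clusters at least 2 times higher numbered 1 in female KO and 0 in male KO with the scale from all regions, and also 1 and 0 at a fold of 3. With gaps of 20 kb, 1 was higher and 0 lower in male KO, and at a fold of 3, 0 were lower. The covered length of H3K4me3 relative to WT was 1.14 in female KO and 1 in male KO for regions at or above the median count, 1.14 and 1.56 for lists of equal covered length, and 1.23 and 1 within 100 kb of Myc. For H3K27ac the same ratios were 2.22 and 1.77, 1.62 and 1.50, and 1.80 and 1.765, and within 500 kb they were 1.93 and 1.54. Under each of these 4 settings male KO H3K27me3 was at 0 kb. Merged H3K4me3 regions of all 3 lists numbered 2, 2 and 3 with the median count, with equal length and with 50% overlap, and those of WT alone 0, 0 and 2. Merged H3K27ac regions of all 3 lists numbered 7 with 50% overlap, those of both KO lists 1, 0 and 7, and those of WT alone 0 with the median count and 3 with equal length. The causes were not tested. Dropping KO regions under the scaled lowest WT count changed no value of the window, because every KO region there was above that count. Those values could only count among the ones that stayed within the tolerance. The same holds for the absence of H3K27me3 from the female KO and WT lists when regions are dropped or the window is narrowed. H3K27me3 had no shared bins in the window, so its ratio could not be computed.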
